A study of Mus musculus with 2 samples.

Results

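Fibro-adipogenic progenitors (FAPs), the mesenchymal progenitors of skeletal muscle, secrete cytokines as well as matrix. The genes examined here are 10 of these secreted factors, out of 26082 genes in the deposited tables, chosen by name as cytokines that FAPs can secrete: Il6, Lif and Il11, ligands that signal through the shared receptor gp130; Csf1 and Il34, ligands of the macrophage receptor CSF1R; Il7, Il15 and Tslp, which sustain lymphoid cells; Il33, an alarmin; and Il1rn, the antagonist of interleukin-1. Each name matched a single gene, and all 10 genes had more than 3 counts in both libraries. The data are RNA-seq of primary FAPs of genotype WT that had received either plasmids overexpressing TGFBR3 or the vector and were kept under adipogenic differentiation, with 1 library per condition. TGFBR3 is a co-receptor for ligands of the TGF-β family. Both cultures had the same induction medium, with insulin at 10 μg/ml, dexamethasone at 0.25 μM, IBMX at 0.5 mM and serum (FBS) at 20%. Neither library thus shows the cytokine genes in FAPs kept without this medium. In the study FAPs were sorted from mouse hind limb muscle, and neither the number of animals behind these libraries nor the time of harvest is given in the sources used here.

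Cytokines act as short-range messages between the stroma of a muscle and the cells that enter it after injury. Ligands of the IL-6 family bind a specific receptor chain and then gp130, which activates the transcription factor STAT3. CSF1 and IL-34 keep macrophages alive, IL-7, IL-15 and TSLP act on lymphocytes and other leukocytes, and IL-33 is held in the nucleus until it is released and binds ST2, the product of Il1rl1, on regulatory T cells and other cells. Glucocorticoids such as the dexamethasone in the medium are known to repress many inflammatory cytokine genes.

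The library labelled TGFBR3 OE (overexpression) held 62321027 counts in all, and the library labelled control, which received the vector, held 83779203. Tgfbr3 itself had 16372 and 21245 counts and an FPKM of 36.9 and 35.1 (log2 ratio of FPKM + 1, 0.07), so the overexpression is not visible in this mRNA, and every direction below is that of the labels only. Since each condition is a single library, the spread between cultures is unknown, no p-value is given, and a difference between the libraries may be a difference between the cultures. Fewer cells that express a gene and less RNA per cell cannot be told apart. Levels are given as FPKM, the count scaled by gene length and library total, which allows genes to be compared with each other. Differences between the libraries are log2 ratios of (FPKM + 1), a scale that compresses the changes of low genes, and ratios of CPM, the count relative to the total of the library. The 95% intervals are exact (Clopper-Pearson, from the counts of a gene in both libraries) and cover counting error only. In both libraries more genes stood at 4 counts (913 and 930) than at 3 (458 and 416) or at 5 (323 and 271), with smaller peaks at 8 and 12. Whether 1 fragment gave several counts was not tested, and intervals computed from the counts divided by 4 are given for the genes that the results turn on. Among FAP markers, Pdgfra stood at an FPKM of 30.5 and 32.6 and Ly6a at 1013 and 706, whereas Pi16 was at 0.03 and 0.08. The summed FPKM of 9 macrophage markers was 0.91 and 0.54, with Adgre1, Tyrobp and Fcer1g at 0 counts in both libraries, and Cd4 and Nkg7 were also at 0. Adipocyte markers differed between the libraries: all 5 were lower in the library labelled TGFBR3 OE, 3 of them by at least 2-fold (Cfd, Car3 and Adipoq), and their summed FPKM was 22.8 against 56.8. Of the 8 FAP markers, Col3a1 and Dpt were also at least 2-fold lower. The part of these differences in the cytokine results was not tested.

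Of the 10 cytokine genes, Il6 and Il15 exceeded a 2-fold higher level by FPKM + 1 in the library labelled TGFBR3 OE, and none was 2-fold lower. Of all 21364 genes with more than 3 counts in either library, 1.73% were 2-fold higher and 0.58% were 2-fold lower by this measure. By CPM with the whole interval past 2-fold, Il6, Il15, Il33 and Il7 were higher and Il1rn was lower, against 7.59% and 2.52% of all genes. The median log2 ratio of FPKM + 1 was 0.29 over the 10 genes and 0.06 over all genes tested, and by CPM the medians were 0.30 and 0.21. Over all genes tested, 13235 log2 ratios of FPKM + 1 were positive and 7702 negative. By CPM the genes thus parted into 4 that were between 3.59-fold and 4.33-fold higher, 4 within 1.5-fold of no difference (Lif, Tslp, Il11 and Csf1), and Il34 and Il1rn lower. After subtraction of a trend over GC content, described further on, Il6 and Il15 alone were higher by CPM with the whole interval past 2-fold, and the median log2 ratio of FPKM + 1 was 0.035. With the counts divided by 4, the interval of Il1rn reached below 2-fold.

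**Figure D1:**
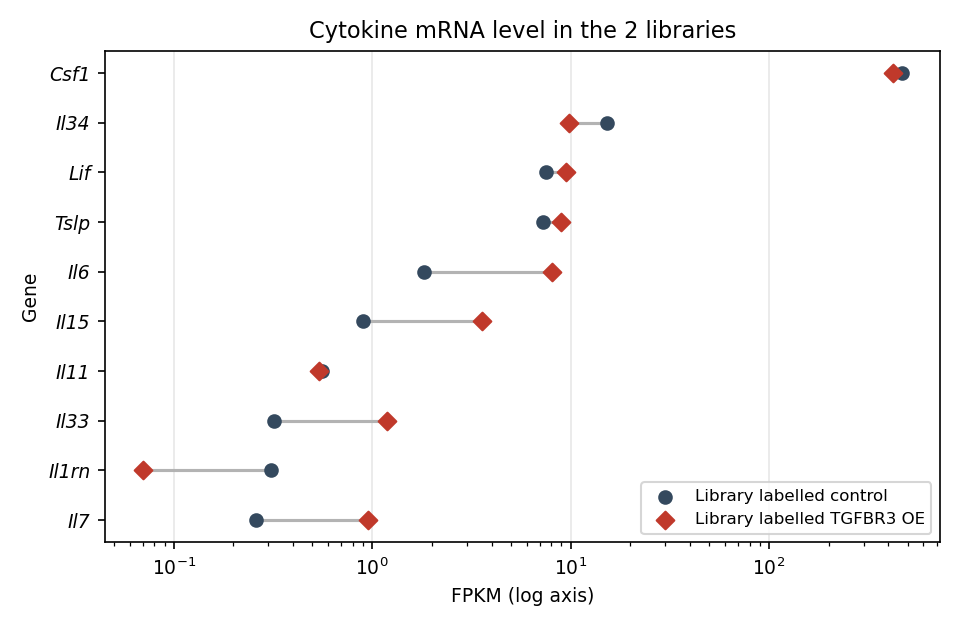
FPKM of the 10 cytokine genes on a log axis, with a circle for the library labelled control and a diamond for the library labelled TGFBR3 OE (1 library each, no error bars). Csf1 stands far above the rest in both libraries, and the widest gaps belong to Il6, Il15, Il33, Il7 and Il1rn.

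The levels of these genes covered a wide range. Csf1, which encodes macrophage colony-stimulating factor, was by far the most abundant, with an FPKM of 421 in the library labelled TGFBR3 OE and 467 in the library labelled control. It made up 90.8% and 93.2% of the summed FPKM of the 10 genes, and ranked 86th and 84th by FPKM among the genes tested. Il34, Lif and Tslp followed, in this order in both libraries, between 7.25 and 15.3. Il6 came next, at 8.05 against 1.83, and Il15 after it, at 3.60 against 0.90. Il33, Il7, Il11 and Il1rn were at or below 1.19 in both libraries, and their order differed: Il11 stood above Il33, Il1rn and Il7 in the library labelled control and below Il33 and Il7 in the other. Summed over the 9 genes without Csf1, the counts were 7514 and 7790, a CPM ratio of 1.30 (95% CI 1.26 to 1.34), while over all 10 genes the ratio was 0.90 because Csf1 sets the sum.

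Il6 had the highest ratio of the 10 genes by both measures, although by CPM Il15 was above it once the trend over GC content was subtracted (log2 ratio 1.78 against 1.53). The gene (ENSMUSG00000025746) lies on the plus strand of chromosome 5 (mm10, 30013114 to 30019981), and its annotated exons overlap those of no other gene. It had 1327 counts in the library labelled TGFBR3 OE and 412 in the library labelled control, which is 21.3 and 4.92 CPM. The log2 ratio of FPKM + 1 was 1.68 (95% CI 1.56 to 1.79), higher than that of 99.5% of the genes tested. The CPM ratio was 4.33 (95% CI 3.87 to 4.85), higher than that of 96.9% of the genes tested with counts in both libraries. With the counts divided by 4 the interval was 3.46 to 5.46. Il6 kept the 5th place in both libraries, below Lif, but the gap to Lif was smaller in the library labelled TGFBR3 OE: the FPKM ratio of Lif to Il6 was 4.11 in the library labelled control and 1.18 in the other.

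Lif, which encodes leukemia inhibitory factor (ENSMUSG00000034394, chromosome 11, 4257557 to 4272514, plus strand), had 2801 and 3027 counts and an FPKM of 9.49 and 7.53. Its CPM ratio was 1.24 (95% CI 1.18 to 1.31), or a log2 ratio of 0.31, which lies 0.18 above the median gene of its library pair. Il11 (ENSMUSG00000004371, chromosome 7, 4772373 to 4782859, minus strand), a ligand known for its part in fibrosis, had 77 and 107 counts and an FPKM of 0.54 and 0.56. Its log2 ratio of CPM was −0.05 (95% CI −0.49 to 0.39), and with the counts divided by 4 the interval reached from −0.97 to 0.85, so that a difference inside that range could not be seen with these counts. The members of the IL-6 family therefore did not share a ratio: Il6 was higher, while Lif and Il11 lay close to the other genes.

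Of the other ligands of this family, Clcf1 was at an FPKM of 4.88 against 3.60 and Ctf1 at 0.68 against 1.09. Cntf had no counts in the library labelled TGFBR3 OE and 46 in the other. Among 5 family genes in the data, none was 2-fold changed by FPKM + 1, and Il27 was at 0 in both libraries. By CPM with the whole interval past 2-fold, Cntf was lower, as were 2.52% of all genes.

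Because Il6, Il33 and Il1rn differed between the libraries and Lif and Csf1 differed little, the bases before their annotated starts are shown. RefSeq promoter windows on GRCm38.p6, the assembly of mm10, were at hand for these 5 genes and for Il11, and the 250 bases before the start of the 5 are printed 5′ to 3′ on the strand of the gene, with matches to the searched motifs in capitals. The motifs were AP-1 (TGANTCA), the cAMP response element (TGACGTCA) and its shorter core (TGACG), the interferon factor motif (GAAANNGAA), the STAT motif (TTCNNNGAA), C/EBP (TTGCNNAA) and NF-κB, each on both strands, and TATAAA on the strand of the gene. The shorter core lies inside the full cAMP response element.
Il6, chr5:30012864-30013113, plus strand: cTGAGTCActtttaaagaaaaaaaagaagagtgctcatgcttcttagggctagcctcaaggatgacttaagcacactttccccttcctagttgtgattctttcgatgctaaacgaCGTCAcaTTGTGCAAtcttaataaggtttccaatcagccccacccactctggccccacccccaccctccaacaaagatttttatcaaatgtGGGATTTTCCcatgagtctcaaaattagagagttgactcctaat
Lif, chr11:4257318-4257567, plus strand: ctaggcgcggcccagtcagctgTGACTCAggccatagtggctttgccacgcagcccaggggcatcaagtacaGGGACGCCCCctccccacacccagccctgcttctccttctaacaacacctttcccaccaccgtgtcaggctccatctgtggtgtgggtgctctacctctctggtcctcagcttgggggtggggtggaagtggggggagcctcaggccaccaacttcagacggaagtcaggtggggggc
Csf1, chr3:107760470-107760719, minus strand: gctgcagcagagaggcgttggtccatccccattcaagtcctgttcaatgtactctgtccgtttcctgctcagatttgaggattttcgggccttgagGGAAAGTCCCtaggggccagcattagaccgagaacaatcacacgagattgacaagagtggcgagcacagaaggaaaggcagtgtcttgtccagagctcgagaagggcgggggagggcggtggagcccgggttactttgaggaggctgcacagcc
Il33, chr19:29945540-29945789, plus strand, the downstream of 2 starts: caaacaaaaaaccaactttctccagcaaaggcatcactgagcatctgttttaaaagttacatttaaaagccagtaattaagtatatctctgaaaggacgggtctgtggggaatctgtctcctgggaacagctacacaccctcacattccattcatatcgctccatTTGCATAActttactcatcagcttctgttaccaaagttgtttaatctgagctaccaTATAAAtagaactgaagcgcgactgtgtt
Il1rn, chr2:24336610-24336859, plus strand, the first of 3 starts: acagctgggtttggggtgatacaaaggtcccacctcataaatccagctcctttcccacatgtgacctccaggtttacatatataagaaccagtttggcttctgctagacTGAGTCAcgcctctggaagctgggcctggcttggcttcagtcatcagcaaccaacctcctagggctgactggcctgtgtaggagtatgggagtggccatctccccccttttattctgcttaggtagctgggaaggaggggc

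In the Il6 window the capitals mark, from left to right, an AP-1 match at −249, the core of a cAMP response element at −135, a C/EBP match at −128 and an NF-κB match at −44, counted from the start. Lif and Csf1, whose levels were within 1.5-fold between the libraries, also held an NF-κB match, at −178 and −154, and Lif an AP-1 match at −228. The windows of Il33 held no NF-κB or AP-1 match, and the capitals in the one shown mark C/EBP at −85 and TATAAA at −29. The printed window of Il1rn held an AP-1 match at −141, while the windows of its other starts held none of the searched motifs. Among the windows of Il11, which are not printed, 1 held an AP-1 match at −98. Of all 32851 promoter windows, 8.46% held an NF-κB match, 7.81% AP-1, 20.8% the cAMP core, 10.8% C/EBP and 8.32% TATAAA. None of the windows of these 6 genes held the interferon factor motif, the STAT motif or the full cAMP response element, which 8.56%, 8.30% and 1.79% of all windows held. These matches describe the letters only. Il7, Il15, Tslp and Il34 were not in the promoter table.

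**Figure D2:**
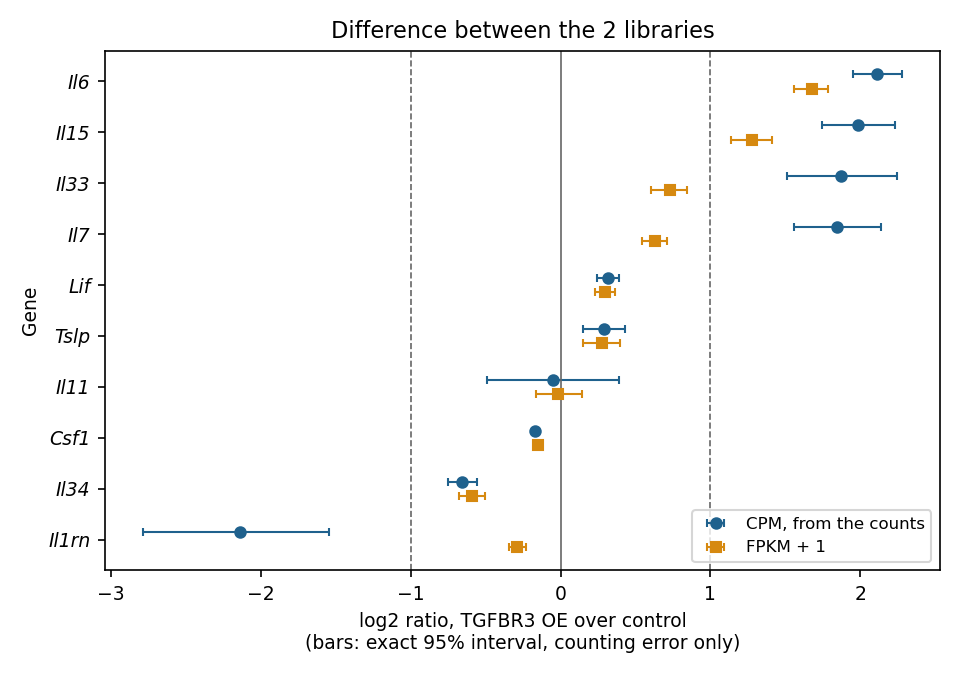
Log2 ratio of each cytokine gene, library labelled TGFBR3 OE over library labelled control, by CPM (circles) and by FPKM + 1 (squares), with exact 95% intervals that cover counting error only. The dashed lines mark 2-fold. Il6, Il15, Il33 and Il7 lie right of the dashed line by CPM, and Il1rn lies left of the other.

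Il15, a cytokine that supports natural killer and memory T cells, was the other gene past 2-fold by both measures. It lies on chromosome 8 from 82331632 to 82403222, on the minus strand (ENSMUSG00000031712), and had 556 and 189 counts, or an FPKM of 3.60 and 0.90. The log2 ratio of FPKM + 1 was 1.28 (95% CI 1.14 to 1.41), higher than that of 99.1% of the genes tested. The CPM ratio was 3.95 (95% CI 3.35 to 4.69), higher than that of 96.2% of the genes tested with counts in both libraries. With the counts divided by 4 the interval was 2.82 to 5.62. Il15ra, whose product presents IL-15 to neighbouring cells, had an FPKM of 1.11 against 0.42 and a log2 ratio of CPM of 1.37 (95% CI 1.11 to 1.64). Both the ligand and its presenting receptor were thus higher in the library labelled TGFBR3 OE.

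Il7 (ENSMUSG00000040329, chromosome 3, 7569994 to 7613760, minus strand), a survival factor of lymphocytes, was low, with 366 and 137 counts and an FPKM of 0.95 and 0.26. Its CPM ratio was 3.59 (95% CI 2.94 to 4.40), and 2.40 to 5.49 with the counts divided by 4, whereas the log2 ratio of FPKM + 1 was 0.63, short of 2-fold. The FPKM ratio of Il15 to Il7 was nearly alike in the libraries, at 3.79 and 3.46. Of its exon bases, 105 overlap those of an antisense gene, Gm16685, which cannot be told apart if the counting ignored strand. Il7r, the receptor, had 9 counts in the library labelled TGFBR3 OE and none in the other.

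Il33 (ENSMUSG00000024810, chromosome 19, 29925114 to 29960718, plus strand) was also low, with 234 and 86 counts and an FPKM of 1.19 and 0.32. Its CPM ratio was 3.66 (95% CI 2.85 to 4.74), and with the counts divided by 4 the log2 ratio lay between 1.14 and 2.66. Its receptor gene Il1rl1 was more abundant than the ligand, with 11770 and 6190 counts and an FPKM of 25.2 and 9.72. The gene gives a membrane receptor and a soluble decoy form, which counts per gene do not separate. Il1rl1 was the only one of the 16 receptor genes examined that was 2-fold higher by FPKM + 1 (log2 ratio 1.29, 95% CI 1.25 to 1.33). Il1rap, which encodes the co-receptor of ST2 and of the interleukin-1 receptor, had an FPKM of 6.60 against 3.40 and a log2 ratio of 0.79. Ligand, receptor and co-receptor of this pathway all had higher values in the library labelled TGFBR3 OE. Of the 16 receptor genes, 10 had a positive log2 ratio of FPKM + 1, as did 13235 of the 21364 genes tested.

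The ratios of Il6, Il33 and Il7 stood beside a trend over base composition. In 11202 genes whose mean FPKM reached 1, the log2 ratio of CPM decreased as the GC content of the longest coding transcript increased. Its median was 0.58 in the bin of lowest GC content, among 20 bins, and −0.32 in that of highest. Il7, Il6 and Il33 transcripts are at 39.0%, 39.3% and 42.5% GC. With the trend removed, the log2 ratio of CPM was 1.53 (95% CI 1.37 to 1.69) for Il6, 1.78 (95% CI 1.53 to 2.02) for Il15, 1.36 for Il33, with an upper bound of 1.73 and a lower bound just under 1, and 1.26 (95% CI 0.97 to 1.55) for Il7. The intervals of Il6 and Il15 stayed wholly past 2-fold, while those of Il33 and Il7 reached below it. Il33 and Il7, with a mean FPKM below 1, were not among the genes that gave the trend.

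**Figure D3:**
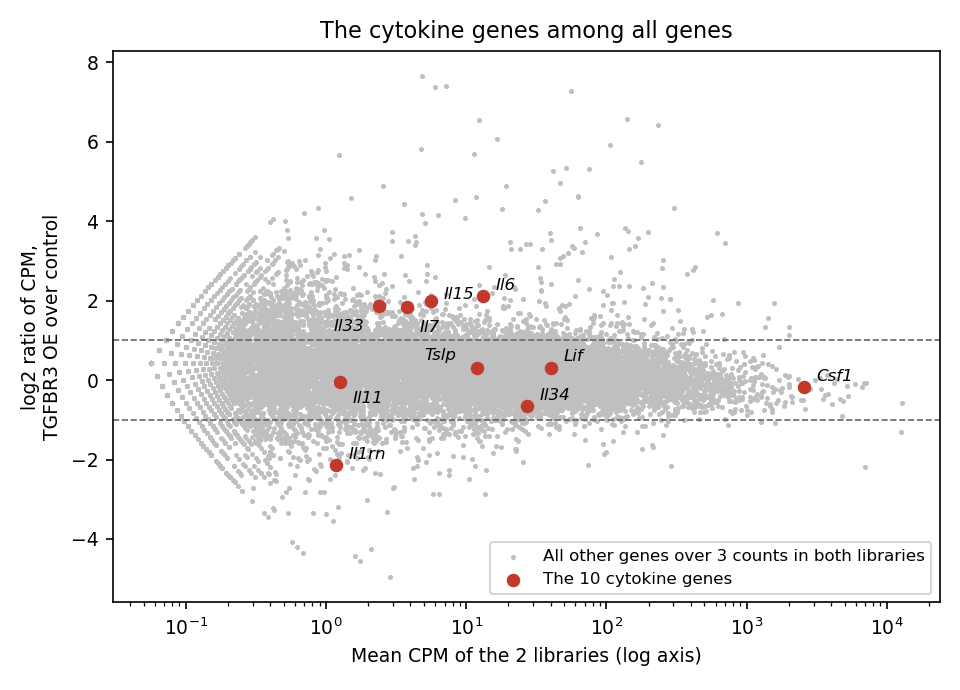
Log2 ratio of CPM, library labelled TGFBR3 OE over library labelled control, against the mean CPM of the 2 libraries on a log axis, for genes with more than 3 counts in both libraries. The 10 cytokine genes are red and labelled, other genes are gray, and the dashed lines mark 2-fold. Il6, Il15, Il7 and Il33 lie together above the upper line, at the edge of a cloud that widens toward low counts.

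Tslp, which encodes thymic stromal lymphopoietin, an activator of dendritic cells (ENSMUSG00000024379, chromosome 18, 32815383 to 32819797, plus strand), had 813 and 893 counts and an FPKM of 8.99 and 7.25. Its CPM ratio was 1.22 (95% CI 1.11 to 1.35), with a log2 ratio of 0.29. After the correction for base composition described above, the log2 ratio was −0.29, so that its direction rests on this correction. Crlf2, the specific chain of its receptor, had an FPKM of 13.4 against 16.2.

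Both ligands of CSF1R were lower in the library labelled TGFBR3 OE, by unequal amounts. Csf1 (ENSMUSG00000014599, chromosome 3, 107741048 to 107760469, minus strand) had 150713 and 228076 counts and a log2 ratio of CPM of −0.17 (95% CI −0.18 to −0.16). Il34 (ENSMUSG00000031750, chromosome 8, 110741829 to 110805924, minus strand) had 1313 and 2779 counts, an FPKM of 9.86 against 15.3 and a log2 ratio of CPM of −0.65 (95% CI −0.75 to −0.56), and 97 of its exon bases overlap antisense genes. Csf1 exceeded Il34 by 30.5-fold in FPKM in the library labelled control and by 42.7-fold in the other. Csf1r was near absent, with 182 and 210 counts and an FPKM of 0.46 and 0.39, and Ptprz1, another receptor of IL-34, was at 0.03 and 0.04. The cultures thus held abundant mRNA of the ligand and little mRNA of its receptor.

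Il1rn had the lowest level of the 10 genes in the library labelled TGFBR3 OE and was the only one of them whose CPM was at least 2-fold lower. The gene (ENSMUSG00000026981) lies on chromosome 2 from 24336853 to 24351494, on the plus strand. It had 27 counts in the library labelled TGFBR3 OE and 160 in the library labelled control, or 0.43 and 1.91 CPM, which is 4.41-fold lower (95% CI 2.92 to 6.90). With the counts divided by 4 the interval was 1.93 to 11.9, which reaches below 2-fold. The FPKM was 0.07 against 0.31, and the log2 ratio of FPKM + 1 was only −0.29. Of the genes of interleukin-1 itself, Il1a had 24 and 6 counts and an FPKM of 0.18 and 0.03, and Il1b had 7 and 0 counts. Il1r1, the signalling receptor, stood at an FPKM of 5.88 and 5.76, and Il1r2, the decoy receptor, at 0.33 and 0.55.

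**Figure D4:**
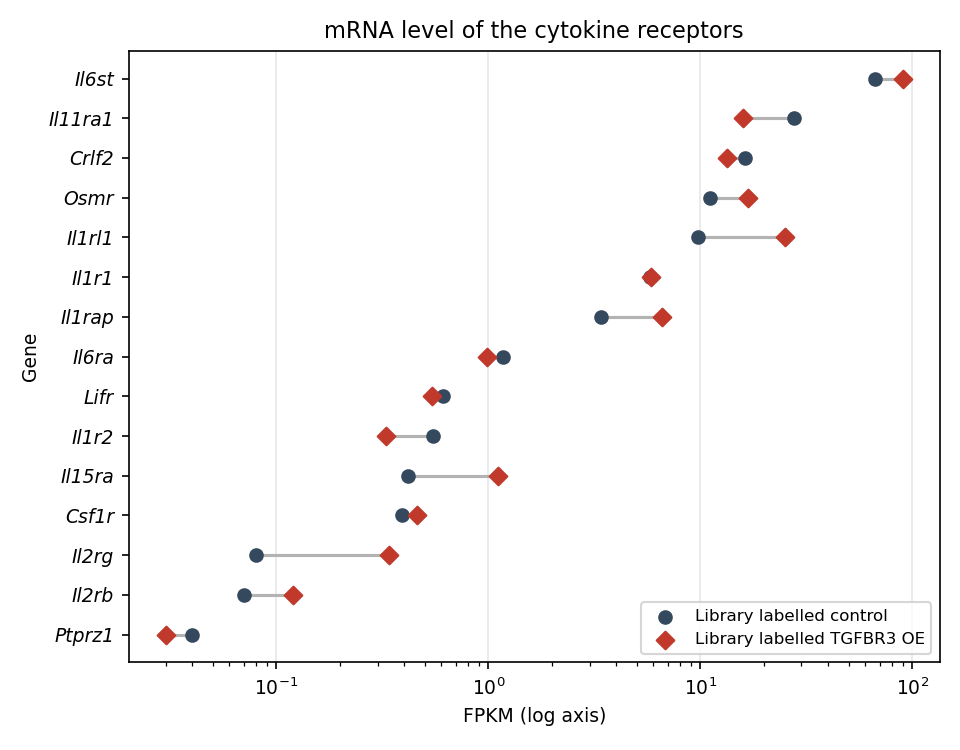
FPKM of the receptor genes examined, those of the 10 cytokines and Osmr, on a log axis. A circle stands for the library labelled control and a diamond for the library labelled TGFBR3 OE (1 library each, no error bars). Il7r, at 0 in the library labelled control, is left out of the plot. Il6st is the most abundant, Il1rl1, Il1rap and Il15ra are higher in the library labelled TGFBR3 OE, and Il11ra1 is lower.

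For the ligands of the IL-6 family, the receptors present were Il6st, which encodes gp130, at an FPKM of 90.2 against 66.8, Osmr at 16.8 against 11.1 and Il11ra1 at 15.8 against 27.6. Il6ra and Lifr were low, at 0.98 against 1.17 and 0.54 against 0.61. Among the chains used by IL-7 and IL-15, Il2rg had 56 and 18 counts and Il2rb 34 and 27. Across the 16 receptor genes, 4 were higher by CPM with the whole interval past 2-fold (Il1rl1, Il15ra, Il2rg and Il7r) and none was lower. Of all genes, 7.59% were higher and 2.52% lower in this way. The calls of Il2rg and Il7r (9 and 0 counts) rest on few counts. Intervals from the counts divided by 4 were not computed for the receptors, and the trend over GC content was not subtracted for them. The median log2 ratio of FPKM + 1 of the receptor genes was 0.05, near that of all genes.

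By FPKM + 1, genes that STAT3 is known to induce gave no 2-fold difference in either direction. Of 12 such genes, 5 had a positive and 7 a negative log2 ratio of FPKM + 1, with a median of −0.14. Socs3, the feedback inhibitor of gp130 signalling, was at an FPKM of 14.7 against 16.5, Serpina3n, an acute-phase protease inhibitor, at 106 against 211 (2.01-fold lower by CPM, 95% CI 1.98 to 2.05), and Cebpd, a transcription factor, at 50.7 against 92.8. Saa3, another acute-phase gene, was at 521 against 385. The group thus had values in both directions. Serpina3n and Saa3 belong to families of close paralogs, so their counts may be shared with other members, and RNA shows nothing of phosphorylated STAT3.

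Of 6 genes whose products cut or release cytokines, none was 2-fold changed by FPKM + 1. By CPM with the whole interval past 2-fold, 1 (Casp1) was higher and none was lower, against 7.59% and 2.52% of all genes. Casp1, the protease that matures interleukin-1β, had the largest ratio, with 563 and 268 counts and a CPM ratio of 2.82 (95% CI 2.44 to 3.28). Adam17, which sheds CSF1 and the IL-6 receptor from the cell surface, was at an FPKM of 10.1 against 9.08.

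Of 5 genes of interferon signalling, all had higher values in the library labelled TGFBR3 OE, with a median log2 ratio of FPKM + 1 of 1.41. By this measure 3 were at least 2-fold higher, against 1.73% of all genes. Irf7, a transcription factor that interferon induces, had 71392 and 7326 counts and a log2 ratio of 3.67. Irf1 was at an FPKM of 18.0 against 10.6. Their part in the ratios of the cytokine genes was not tested.

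Transcripts of short-lived cytokine mRNAs often carry AU-rich elements, in which the pentamer ATTTA recurs. The longest coding transcripts of Il6 and Il11 held 10 pentamers each, that of Lif 7, that of Il7 6 and those of the other genes between 0 and 4, against a median of 2 over all coding genes. These counts cover whole transcripts, coding part included. They are not scaled by length, which ranged from 1126 bases for Tslp to 4858 for Il7, so they do not rank the genes by density. The nonamer TTATTTATT, a stricter form, occurred 5 times in Il11 and 2 times in Lif and in none of the other 8, and 7.99% of 21866 coding genes held it. The relation of these elements to the ratios was not tested.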

How the data were processed

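RNA of 2 cultures was sequenced, 1 library per condition, on an Illumina NovaSeq. The authors deposited, per the file headers, the count of each gene and its FPKM, rounded to 2 decimals. The paper's methods give mapping to mm10 with STAR and counting with FeatureCounts. The submitters' processing notes list cutadapt 1.9, HISAT2 2.2.1 and StringTie 2.1.6 instead, and which of them made the counts is not settled here. The totals that the FPKM values imply (67892310 and 92449963) exceed the summed counts.

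Ratios of FPKM + 1, with a pseudocount of 1, and of CPM were computed over all 26082 genes in Python 3.11.15 with SciPy 1.17.1. Genes with more than 3 counts in either library entered the shares. The interval of a share of counts was put on each scale. No count model was fitted, since no replicates exist. Sequence and coordinates came from GENCODE M21 (99.7% of genes matched) and RefSeq. All 10 members, their receptors, Tgfbr3 and at most 5 genes of each other list, by size of the log2 ratio of FPKM + 1, are named. Socs3, Il1a, Il1b, Tnfsf10, Tnfsf11, Il27 and the markers named were chosen after their values were seen. Some genes that this rule would name are not reported here. The members and lists were chosen with earlier results of these data known. The interval code was tested on simulated independent (Poisson) counts, scored on genes above a minimum expected count. That test bears neither on several counts per fragment nor on genes with few counts.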

Additional observations from a re-analysis of the deposited data

How the results depend on the processing

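The count of members 2-fold higher by FPKM + 1, 2 in the main measure, was 4 with a pseudocount of 0.1 or 0.01, with the plain ratio, with CPM and a pseudocount of 1, and at a 1.5-fold threshold, and 0 at a 4-fold threshold. The count 2-fold lower, 0 in the main measure, was 1 under the first 5 of these settings. Il33, Il7 and Il1rn, none above an FPKM of 1.19, account for the change with the pseudocount; Il34 for that at 1.5-fold in the lower direction. The median log2 ratio of 0.29 was 0.16 after centring on the median gene and, after subtracting the trend over GC content, 0.035. Tslp reversed, to −0.17 by FPKM + 1, with that trend removed. By CPM, the count of members higher was 2 instead of 4 with the trend removed, and the count lower was 0 instead of 1 with the counts divided by 4. These last 2 settings were chosen after seeing the data. Il6 and Il15 were 2-fold higher under all 10 alternatives that kept the 2-fold threshold, by log2 ratios from 1.24 to 2.14 and from 1.10 to 2.00. Some of these alternatives could not have lost the call. A smaller pseudocount or the plain ratio can only raise a positive ratio, and a cutoff on mean FPKM leaves it unchanged. Depth limits Il11, with 77 and 107 counts.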

Other observations

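None of the growth factors examined was 2-fold changed by FPKM + 1, or by CPM with the whole interval past 2-fold. Of 30 such genes with more than 3 counts in either library, 22 had a positive and 8 a negative log2 ratio of FPKM + 1, with a median of 0.19. Positive ratios were also more frequent over all genes tested, with 13235 positive, 7702 negative and a median of 0.06. Fgf10, a fibroblast growth factor, had an FPKM of 7.42 against 4.03, Kitl, the ligand of KIT, 15.6 against 9.30, Gdnf, a neurotrophic factor, 3.95 against 2.08, and Pgf, placental growth factor, 1.58 against 0.68. Gas6, a ligand of TAM receptors, was the most abundant by FPKM, at 412 against 678, with a log2 ratio of FPKM + 1 of −0.72 (95% CI −0.73 to −0.70).

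Among 18 other cytokine genes, 4 were higher by CPM with the whole interval past 2-fold and 1, Tnfsf11, was lower. Of all genes, 7.59% were higher and 2.52% lower in this way. These calls rest on few counts, and intervals from the counts divided by 4 were not computed for them. Csf2, which encodes a granulocyte-macrophage growth factor, had 86 and 39 counts, with a lower bound of 2.01-fold, Tnf 29 and 8, Il1a 24 and 6, and Tnfsf10, which encodes TRAIL, 31 and 0. Tnfsf11, which encodes RANKL, was at 0 and 27 counts. Il18 had 201 and 116 counts and a log2 ratio of FPKM + 1 of 0.80, Tnfsf13b, which encodes BAFF, 527 and 426, and Il17d 111 and 268. None of the 18 was 2-fold changed by FPKM + 1.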
